A study of Mus musculus with 16 samples.

Results

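The genes described here are 9 genes grouped as regulators of short-lived messenger RNAs, measured in mouse CD8 T cells. They are Zfp36, Zfp36l1, Zfp36l2, Zc3h12a, Rc3h1, Elavl1, Khsrp, Auh and Tnfaip3, the last of which encodes a ubiquitin-editing enzyme. They were chosen by name, as the non-control array probes whose annotated gene is one of these symbols or an older synonym of it (1 Rc3h1 probe is listed as 5730557L09Rik). All 9 were found, on 17 of 41174 probes. All 17 probes passed the filter on dim spots, so all 9 genes are among the 18411 genes tested.

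The cells came from female C57BL/6N mice aged 7 weeks, for which the labels name no genetic change, infection or immunisation. Flow sorting split CD8+Thy1.2+ cells on surface CD44 into memory phenotype cells (CD44hi) and naive cells (CD44lo). Each fraction then spent 4 h in culture, either stimulated with PMA (10 ng/mL) plus ionomycin (500 ng/mL) or resting in medium only. PMA switches on protein kinase C and ionomycin lets calcium into the cell, so together they drive T cell activation from inside, without the antigen receptor. The groups are memory stimulated, memory resting, naive stimulated and naive resting, with 4 arrays each and 16 in all. By the design text, sorting and stimulation were repeated 4 times; how many mice were pooled the labels do not say. The 4 arrays of a group lay on 1 slide and were scanned together, and no slide held arrays of more than 1 group, so slide and group cannot be told apart in any comparison.

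None of 9 T cell markers (Cd3 chains, Cd8a, Cd8b1, Thy1 and others) was below background on all arrays of a group. They too moved with stimulation, as 2 of 9 rose and 5 fell in the memory response, and 2 rose and 6 fell in the naive response. Their summed level was 295 to 539 times the 75th percentile of the array. The 9 monocyte, macrophage and neutrophil markers tested summed to far less, and they moved with stimulation. Their sums were 2.68 to 4.23 in memory stimulated against 13.4 to 22.1 in memory resting cells, and 1.51 to 3.03 in naive stimulated against 8.43 to 14.3 in naive resting cells. None of these 9 was below background on all arrays of a group either, 7 of 9 fell in each response, and their part in the results was not tested. Beside all marker counts here, 30.1% of all genes tested rose and 40.8% fell in the memory response, and 36.7% rose and 32.0% fell in the naive response. The sum of the 6 NK or NKT cell markers moved with the fraction and with stimulation. It was 43.8 to 66.8 in memory stimulated against 13.1 to 21.0 in naive stimulated cells, and 18.8 to 21.1 in memory resting against 5.93 to 10.4 in naive resting cells. Of the 6, 1 rose and 1 fell in the memory response, and 3 rose and 1 fell in the naive response. Between the fractions, 5 of 6 were higher in memory cells at rest, against 13.9% of all genes tested. After stimulation 6 of 6 were higher in memory cells, against 9.86%. The NK markers Ncr1 and Klre1 were below background on all naive arrays, and the part of this list was not tested either. Other lists moved too, and their part was not tested. The 5 B cell markers summed to 0.199 to 0.276 in memory stimulated against 1.32 to 1.61 in memory resting cells and to 0.224 to 0.412 in naive stimulated against 1.64 to 2.21 in naive resting cells. Marker by marker, 3 of these 5 fell in the memory response and only 1 of 5 in the naive response, so the sums rest on part of the list. At rest, 2 of 4 CD4 T cell markers and 5 of 7 markers of antigen-presenting cells were higher in memory cells, against 13.9% of all genes tested. Of 3 erythrocyte or platelet markers, 3 fell in the memory response, while 1 rose and 1 fell in the naive response. In RNA from a whole sorted fraction, fewer cells of a type and less RNA per cell cannot be told apart.

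Many cytokine and early-response messages carry AU-rich elements (AREs), runs of the pentamer AUUUA in the 3' untranslated region. Proteins of the tristetraprolin family bind such elements and recruit the CCR4-NOT deadenylase, which shortens the poly(A) tail and opens the message to decapping and to the RNA exosome. Regnase-1 and Roquin-1 act on stem-loops in an overlapping set of messages, HuR protects ARE messages, and in T cells the protease MALT1 cleaves Regnase-1, Roquin-1 and A20 after activation.

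Some of the array probes hold the pentamer, which does not by itself show an ARE. Of the 17 probes, 4 hold ATTTA, the DNA form of the pentamer, against 9.16% of all 41174 probes. The windows below are 30 bases of the array's own probe sequences, with positions on mouse build mm7 and with each ATTTA in capitals. The first 4 belong to the genes described here and the other 6 to known targets, out of 8 targets with such a probe, chosen with their changes known and with Dusp1 and Jun to show that the pentamer is also found where levels changed little or not detectably. A probe covers only 60 bases, so its absence from the other probes says nothing about those messages.
Zfp36, chr7:25310836-25310865, minus strand: ATTTAttgtattaagattttatagtATTTA
Auh, chr13:51876106-51876135, minus strand: catgtcatATTTAttcagATTTAtaaagct
Zc3h12a, chr4:124563303-124563332, minus strand: aggcgagATTTAaatattttaaatgaaaaa
Khsrp, chr17:55232715-55232744, minus strand: agcaagaATTTAacctctgccccgcccccc
Plk3, chr4:116505151-116505180, minus strand: cacttttATTTAttaacagacATTTATTTA
Ier3, chr17:33924252-33924281, plus strand: acacagatATTTAttacgATTTAtagggtc
Cxcl2, chr5:90894765-90894794, plus strand: catttttaaacctATTTAttcattagtttc
Ifng, chr10:117841117-117841146, plus strand: acccgaatgacaaataactcgctcATTTAt
Jun, chr4:94441804-94441833, minus strand: aatcataggaaagATTTAgtaattagctgt
Dusp1, chr17, minus strand: agtttttacctttATTTAtttttgtgtagg
The Zfp36 window has 2 pentamers near its ends, and that of Auh 2 in its middle. The Plk3 window ends in overlapping pentamers, ATTTATTTA, the longer form of the element. Ifng (interferon gamma), Plk3 (a stress kinase), Ier3 (an early-response gene) and Cxcl2 (a chemokine) all rose in both responses, with values given further down for Ifng. Jun, a subunit of AP-1, rose by 0.45 ± 0.18 (adjusted p = 0.036) in memory and by 0.49 ± 0.18 (adjusted p = 0.0256) in naive cells. Dusp1, a phosphatase that turns off p38, had changes of 0.13 ± 0.16 (adjusted p = 0.475) in memory and 0.08 ± 0.16 (adjusted p = 0.664) in naive cells.

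On the brightest probe of each gene, all 9 genes were called changed between stimulated and resting cells in both fractions, in different directions. Some of these calls were lost under other scalings or with the mean of a gene's probes, as given below for Zfp36, Rc3h1 and Khsrp. In the memory response (memory stimulated minus memory resting), 6 rose and 3 fell, where 70.8% of all genes tested changed, 30.1% up and 40.8% down. In the naive response (naive stimulated minus naive resting), 7 rose and 2 fell, where 68.7% of all genes tested changed, 36.7% up and 32.0% down. The stimulated and resting arrays did not overlap for 9 of 9 genes in memory cells, where 65.2% of all genes did not overlap, and for 8 of 9 in naive cells, where 60.2% did not. With so many genes changed, a share of members called says little, and the sizes and directions carry the description. The median change was 0.87 (log2) for the 9 genes against -0.21 for all genes in memory cells, and 0.42 against 0.11 in naive cells. The 1842 brightest genes had medians of 0.50 (memory) and 0.41 (naive), so a change of that size in a bright gene is common on this scale. Calls are at an adjusted p of 0.05 or less in limma, with Benjamini-Hochberg adjustment over all genes tested.

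**Figure D1:**
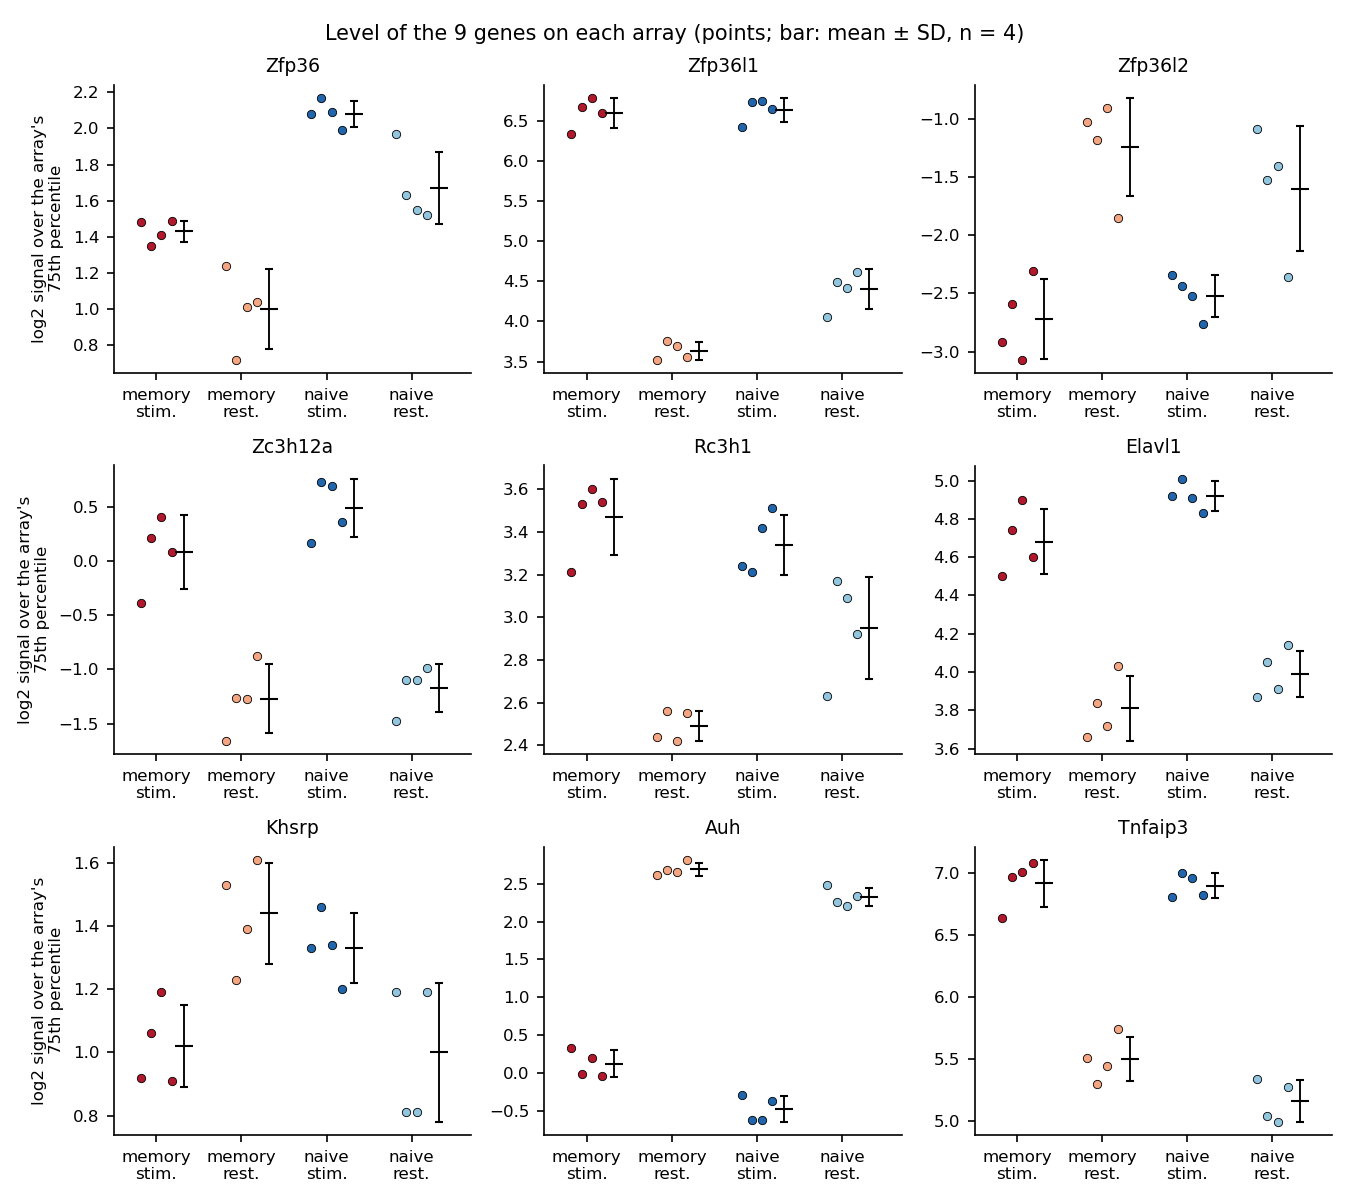
Level of each of the 9 genes on every array (log2 signal over the array's 75th percentile, brightest probe of the gene), with the 4 arrays of a group as points and the mean and SD as a bar beside them; axes differ between panels. Zfp36l1, Tnfaip3, Zc3h12a and Elavl1 are higher and Auh is lower in both stimulated groups, while Khsrp is lower in memory stimulated and higher in naive stimulated cells than in its resting group.

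Zfp36l1 had the largest rise of the 9. It encodes a zinc finger protein of the tristetraprolin family (also called BRF1), which binds AREs and promotes decay. Levels here are log2 units relative to the 75th percentile of the array. Probe 1 (A_51_P235798, chr12:78071105-78071166, minus strand) read 6.34, 6.67, 6.78 and 6.60 in memory stimulated and 3.52, 3.76, 3.69 and 3.55 in memory resting cells. In naive stimulated cells it read 6.42, 6.73, 6.75 and 6.65, and in naive resting cells 4.05, 4.49, 4.42 and 4.62. Both stimulated groups reached the same range, and memory resting cells were below every naive resting array. The change was 2.97 ± 0.14 (log2, SE; adjusted p = 5.06e-11), or 7.83-fold, in memory cells and 2.24 ± 0.14 (adjusted p = 1.05e-09), or 4.73-fold, in naive cells. Probe 2 (A_51_P235801, chr12:78071039-78071098) gave 2.67 ± 0.13 in memory and 2.03 ± 0.13 in naive cells. The memory response exceeded the naive one by 0.73 ± 0.19 (adjusted p = 0.0154), where 19.8% of all genes had a response that differed between the fractions, 5.62% upward and 14.1% downward; in the authors' value table it was 0.50 and just missed the threshold.

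Zfp36 encodes tristetraprolin, the founding member of the family, whose own message carries AREs. Its 2 probes disagree. Probe 1 (A_51_P158538, chr7:25310682-25310724, minus strand, a span shorter than the 60-base probe) read 1.48, 1.35, 1.41 and 1.49 in memory stimulated and 1.24, 0.72, 1.01 and 1.04 in memory resting cells. It read 2.08, 2.17, 2.09 and 1.99 in naive stimulated and 1.97, 1.63, 1.55 and 1.52 in naive resting cells. Stimulated arrays lay just above resting ones in each fraction, and every memory array lay below every naive array. The rise was 0.43 ± 0.12 (adjusted p = 0.00603) in memory and 0.42 ± 0.12 (adjusted p = 0.00741) in naive cells, about the median of the brightest genes, and the naive call was lost with quantile normalization (0.28, adjusted p = 0.0719).

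Probe 2 of Zfp36 (A_52_P80944, chr7:25310819-25310878) is the one that holds the 2 ATTTA pentamers printed above. It read -1.45, -1.36, -1.29 and -0.92 in memory stimulated and -0.81, -1.47, -1.15 and -0.67 in memory resting cells. It read 0.15, 0.36, 0.29 and 0.43 in naive stimulated and -0.79, -0.98, -1.12 and -0.73 in naive resting cells. The naive stimulated group stands alone above the other 3 groups, which overlap. The naive response was 1.21 ± 0.17 (adjusted p = 1.14e-05, over all 27361 probes tested) and the memory response -0.23 ± 0.17 (adjusted p = 0.234). The responses differed by -1.44 ± 0.24 (adjusted p = 0.000748), where 15.8% of all probes had differing responses, 4.45% upward and 11.4% downward, and 68.9% a naive response. On probe 1 the same difference was 0.01 ± 0.17 (adjusted p = 0.974). With the mean of both probes, the memory response was 0.10 (adjusted p = 0.516) and the difference -0.71 (adjusted p = 0.0146). Both probes gave lower levels in memory stimulated than in naive stimulated cells, by -1.56 on probe 2 and -0.65 on probe 1. Which transcript ends the probes report could not be read from the files, which carry no transcript models, and the cause of the disagreement was not tested.

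Zfp36l2, the third family member on the array (also called BRF2), fell. Its only probe (A_51_P406265, chr17:82480896-82480955, minus strand) read -2.92, -2.59, -3.07 and -2.31 in memory stimulated and -1.03, -1.18, -0.91 and -1.85 in memory resting cells. In naive stimulated cells it read -2.34, -2.44, -2.52 and -2.76, and in naive resting cells -1.09, -1.53, -1.41 and -2.36. Memory groups did not overlap, while 1 naive resting array, at -2.36, lay within the naive stimulated range. Zfp36l2 fell by 1.48 ± 0.26 (adjusted p = 0.000114) in memory cells and by 0.92 ± 0.26 (adjusted p = 0.0055) in naive cells; with a normexp background correction, repaired on the arrays where its fit failed, the memory value was -0.97. Zfp36l1 and Zfp36l2 thus changed in opposite directions in both fractions; over the 16 arrays their levels had a Pearson r of -0.88, a value that the shared groups largely set.

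Zc3h12a encodes Regnase-1, an endonuclease that cuts stem-loops in messages such as those of cytokines and Rel. Its only probe (A_51_P297925, chr4:124563273-124563332, minus strand) read -0.39, 0.21, 0.41 and 0.08 in memory stimulated and -1.66, -1.26, -1.27 and -0.88 in memory resting cells. It read 0.17, 0.73, 0.69 and 0.36 in naive stimulated and -1.48, -1.10, -1.10 and -0.99 in naive resting cells. Every stimulated array was above every resting one, and the fractions overlapped at rest and after stimulation. Zc3h12a rose by 1.34 ± 0.20 (adjusted p = 2.11e-05), 2.54-fold, in memory and by 1.66 ± 0.20 (adjusted p = 2.27e-06), 3.16-fold, in naive cells. The message level says nothing of the protein, which MALT1 cleaves in activated T cells.

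Rc3h1 encodes Roquin-1, a RING and zinc finger protein that binds stem-loops and recruits deadenylases. Probe 1 (A_52_P86774, chr1:160936908-160936967, plus strand) read 3.21, 3.53, 3.60 and 3.54 in memory stimulated and 2.44, 2.56, 2.42 and 2.55 in memory resting cells. It read 3.24, 3.21, 3.42 and 3.51 in naive stimulated and 2.63, 3.17, 3.09 and 2.92 in naive resting cells. The memory groups were well apart, the naive groups nearly touched, and the stimulated groups overlapped. Rc3h1 rose by 0.98 ± 0.13 (adjusted p = 6.43e-06) in memory and by 0.39 ± 0.13 (adjusted p = 0.0139) in naive cells. The memory rise was 0.58 with quantile normalization and 0.51 in the authors' value table. The naive rise, close to the 0.41 median of the brightest genes, was 0.75 with the mean of both probes, 0.11 with quantile normalization (adjusted p = 0.445) and 0.02 in the authors' value table (adjusted p = 0.858). Probe 2 (A_52_P475886, chr1:160927825-160929742, a span longer than the 60-base probe) rose by 1.16 ± 0.31 in memory and by 1.11 ± 0.31 in naive cells. The difference between the responses, 0.58 ± 0.18 on probe 1 (adjusted p = 0.0349), was 0.05 ± 0.44 on probe 2 and 0.48 with quantile normalization (adjusted p = 0.0688), and leaving out any of 9 single arrays ended the call on probe 1 (memory stimulated replicate 2, 3 or 4, memory resting 1 or 3, naive stimulated 1 or 2, naive resting 2 or 3; 0.51 to 0.57, adjusted p = 0.057 to 0.0761).

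Elavl1 encodes HuR, the widely expressed protein that binds AREs and stabilises the messages. Probe 1 (A_52_P118640, chr8:4252707-4252766, minus strand) read 4.50, 4.74, 4.90 and 4.60 in memory stimulated and 3.66, 3.84, 3.72 and 4.03 in memory resting cells. It read 4.92, 5.01, 4.91 and 4.83 in naive stimulated and 3.87, 4.05, 3.91 and 4.14 in naive resting cells. The stimulated arrays all lay above the resting ones. Elavl1 rose by 0.87 ± 0.12 (adjusted p = 6.47e-06) in memory and by 0.93 ± 0.12 (adjusted p = 3.4e-06) in naive cells, which is 1.83-fold (memory) and 1.90-fold (naive). The rises kept their calls but were smaller under other scalings, at 0.29 (memory) and 0.46 (naive) with quantile normalization and at 0.23 (memory) and 0.42 (naive) in the authors' value table. Probe 2 (A_51_P301487) rose by 1.03 in memory and by 0.87 in naive cells, and probe 3 (A_52_P429534) rose by 0.82 in memory cells, with a value of 0.36 in naive cells (adjusted p = 0.0911 over probes). Elavl1 and Zfp36l1, whose product promotes decay, thus both rose in each fraction at 4 h.

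Khsrp encodes KSRP, which binds AREs through KH domains and recruits the exosome and the deadenylase PARN. Probe 1 (A_51_P281700, chr17:55232685-55232744, minus strand) read 0.92, 1.06, 1.19 and 0.91 in memory stimulated and 1.53, 1.23, 1.39 and 1.61 in memory resting cells. It read 1.33, 1.46, 1.34 and 1.20 in naive stimulated and 1.19, 0.81, 0.81 and 1.19 in naive resting cells. Stimulated arrays were below resting ones in memory cells and just above them in naive cells. Khsrp fell by 0.42 ± 0.13 (adjusted p = 0.00811) in memory and rose by 0.33 ± 0.13 (adjusted p = 0.0306) in naive cells, and the responses differed by -0.75 ± 0.18 (adjusted p = 0.00824). Probe 2 (A_52_P123252, chr17:55237979-55238038) went the other way in memory cells, rising by 0.82 ± 0.31 (adjusted p = 0.0294 over probes), with 0.40 ± 0.31 in naive cells (adjusted p = 0.269). Replicate 4 lay far below the other resting arrays on this probe (-3.90 in memory, -3.63 in naive cells), and a fit of this probe without it was not run. The difference between responses was 0.42 ± 0.45 on probe 2 (adjusted p = 0.582 over probes) and -0.16 with the mean of both probes (adjusted p = 0.654). The mean of both probes gave 0.20 in memory cells (adjusted p = 0.251), so the direction for Khsrp depends on the probe. The naive call was also lost with quantile normalization (0.27, adjusted p = 0.0646), in the authors' value table (0.16, adjusted p = 0.231) and without any of 4 single arrays (naive stimulated replicate 2 or 3, naive resting replicate 2 or 3; 0.27 to 0.33, adjusted p = 0.0574 to 0.0991).

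Auh encodes an RNA-binding protein first found in human cells through its affinity for AREs, which is also a mitochondrial hydratase of leucine breakdown. It had the largest fall of the 9. Probe 1 (A_51_P372473, chr13:51876091-51876150, minus strand), with 2 ATTTA pentamers, read 0.33, -0.01, 0.19 and -0.04 in memory stimulated and 2.62, 2.68, 2.66 and 2.82 in memory resting cells. It read -0.30, -0.62, -0.63 and -0.37 in naive stimulated and 2.48, 2.26, 2.21 and 2.34 in naive resting cells. The gap between stimulated and resting arrays is many times the spread within a group. Auh fell by 2.57 ± 0.12 (adjusted p = 4.34e-11), a 5.95-fold lower level, in memory and fell by 2.80 ± 0.12 (adjusted p = 1.79e-11), 6.97-fold lower, in naive cells.

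The other 2 Auh probes, which lie far upstream of probe 1 on the gene's strand, were also tested. Probe 2 (A_52_P107290, chr13:51953664-51953723) gave -0.54 ± 0.27 in memory (adjusted p = 0.0897 over probes) and -0.47 ± 0.27 in naive cells (adjusted p = 0.136). Probe 3 (A_52_P4095, chr13:51948963-51949022) gave -0.56 ± 0.24 in memory cells (adjusted p = 0.053) and fell in naive cells (adjusted p = 1.64e-05). No naive stimulated array had it well above background, so that fall is a bound, at least 2.45-fold, set by the lowest signal well above background on each array. Probe 2 in both fractions and probe 3 in memory cells thus gave smaller values than probe 1, while in naive cells the bound on probe 3 cannot be ordered against it. The mean of the 3 probes was -1.22 in memory and -1.65 in naive cells, and the cause of the gap between probes was not tested.

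**Figure D2:**
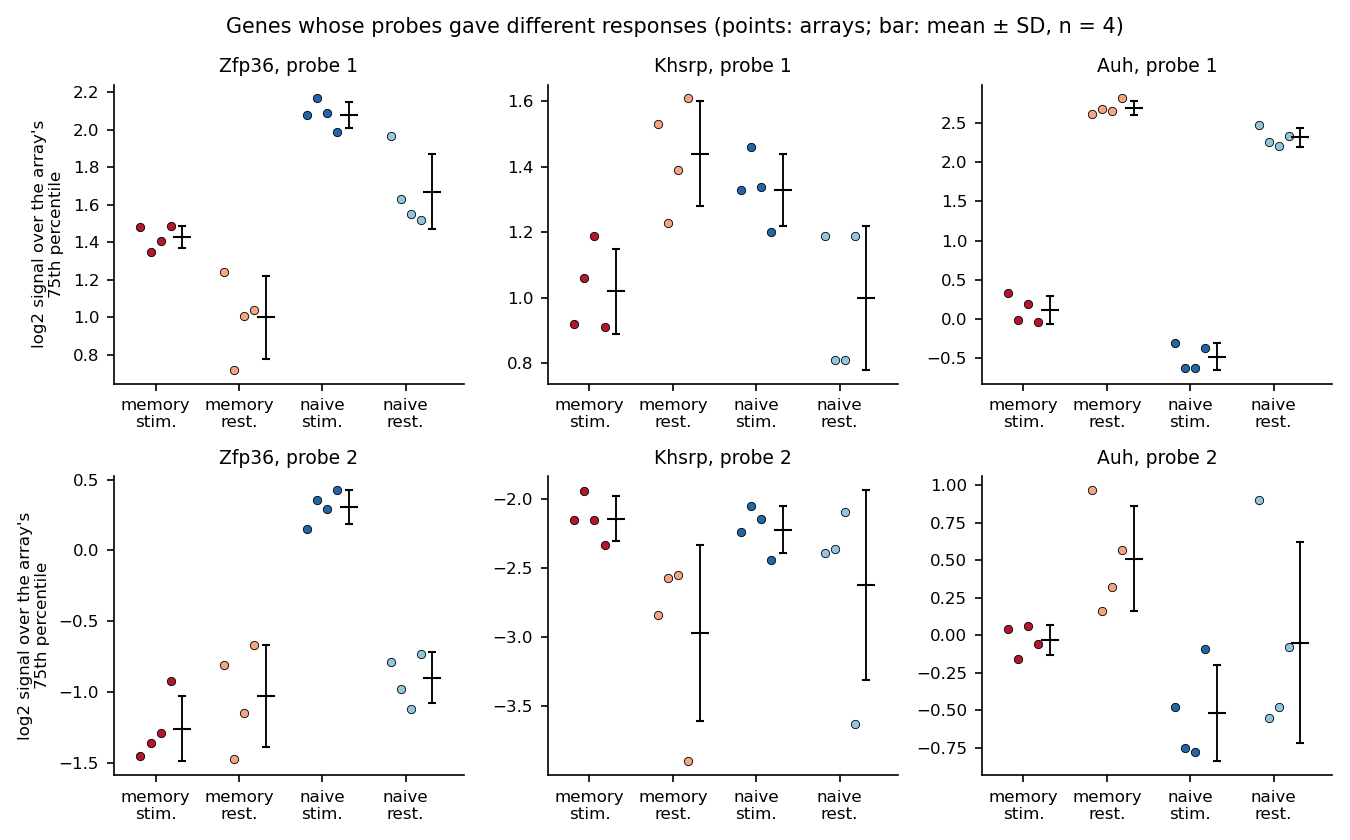
Probe 1 (top) and probe 2 (bottom) of Zfp36, Khsrp and Auh on every array (log2 signal over the array's 75th percentile; points are arrays, the bar the mean and SD, n = 4). For Zfp36 only naive stimulated cells are raised on probe 2, for Khsrp 1 array of each resting group lies far below the others on probe 2, and for Auh the wide gap of probe 1 is narrow on probe 2.

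Tnfaip3 encodes A20, a ubiquitin-editing enzyme that restrains NF-kappaB; it does not bind AREs itself, and it is a MALT1 substrate like Regnase-1 and Roquin-1. Its only probe (A_52_P412417, chr10:18722874-18722933, minus strand) read 6.64, 6.97, 7.01 and 7.08 in memory stimulated and 5.51, 5.30, 5.44 and 5.74 in memory resting cells. It read 6.81, 7.00, 6.96 and 6.82 in naive stimulated and 5.34, 5.04, 4.99 and 5.27 in naive resting cells. All stimulated arrays were above all resting ones, and the stimulated groups covered the same range. Tnfaip3 rose by 1.43 ± 0.13 (adjusted p = 8.36e-08), 2.69-fold, in memory and by 1.74 ± 0.13 (adjusted p = 9.12e-09), 3.34-fold, in naive cells. The memory rise was 0.77 with quantile normalization and 0.71 in the authors' value table, where the naive rise was 1.11. The responses differed by -0.31 ± 0.18 (adjusted p = 0.26), and by -0.50 with quantile normalization (adjusted p = 0.0214).

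The starts of 8 of the 9 genes (not Zfp36l2) are in the RefSeq promoter table, and 3 of the genes that rose are shown, since their windows hold more than 1 kind of motif searched. The letters are the 250 bases before the annotated start on GRCm38.p6, from RefSeq, with motif matches in capitals. The motifs searched on both strands were the AP-1 site TGANTCA, the Egr site GCGNGGGCG, the NFAT core TGGAAA, the TATA box TATAAA, and the consensus forms of the NF-kappaB site and of the CArG box, which serum response factor binds.
Tnfaip3, chr10:19015411-19015660, minus strand: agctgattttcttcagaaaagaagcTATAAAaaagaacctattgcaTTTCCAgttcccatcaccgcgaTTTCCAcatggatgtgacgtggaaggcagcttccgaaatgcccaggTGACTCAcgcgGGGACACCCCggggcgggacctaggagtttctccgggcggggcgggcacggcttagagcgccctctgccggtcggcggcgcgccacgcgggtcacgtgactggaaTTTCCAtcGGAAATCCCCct
Zfp36l1, chr12:80113014-80113263, minus strand: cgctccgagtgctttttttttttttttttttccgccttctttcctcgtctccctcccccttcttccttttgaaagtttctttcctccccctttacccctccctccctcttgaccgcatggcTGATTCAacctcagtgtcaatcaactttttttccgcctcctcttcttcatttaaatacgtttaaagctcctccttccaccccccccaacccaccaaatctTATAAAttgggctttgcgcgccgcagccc
Zfp36, chr7:28379229-28379478, minus strand: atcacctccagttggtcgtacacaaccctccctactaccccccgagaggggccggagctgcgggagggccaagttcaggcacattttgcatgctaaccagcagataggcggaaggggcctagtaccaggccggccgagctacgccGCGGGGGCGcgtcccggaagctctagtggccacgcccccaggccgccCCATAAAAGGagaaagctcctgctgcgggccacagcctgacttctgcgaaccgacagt
The Tnfaip3 window holds 1 AP-1 site, 2 NF-kappaB sites, 3 NFAT cores on the other strand (TTTCCA) and a TATA box far from the start. That of Zfp36l1 holds an AP-1 site and a TATA box at -29, counted from the start, and that of Zfp36 an Egr site and a CArG box, and no matches overlap. Rc3h1 has an AP-1 site in the same span, while the windows of Zc3h12a and Khsrp hold none of these letters. For Auh and Elavl1 the window lies before a start other than the annotated 5' end. That of Auh holds an NFAT core and that of Elavl1 none of the motifs. Tnfaip3 has such an other start as well, and the window before it holds none of the motifs. Of 32851 promoters of this length, 6.75% hold an AP-1 site, 3.90% an NF-kappaB site, 4.70% an Egr site, 18.6% an NFAT core, 1.47% a CArG box and 12.4% the TATA letters. A match is a description of the letters and not of binding.

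**Figure D3:**
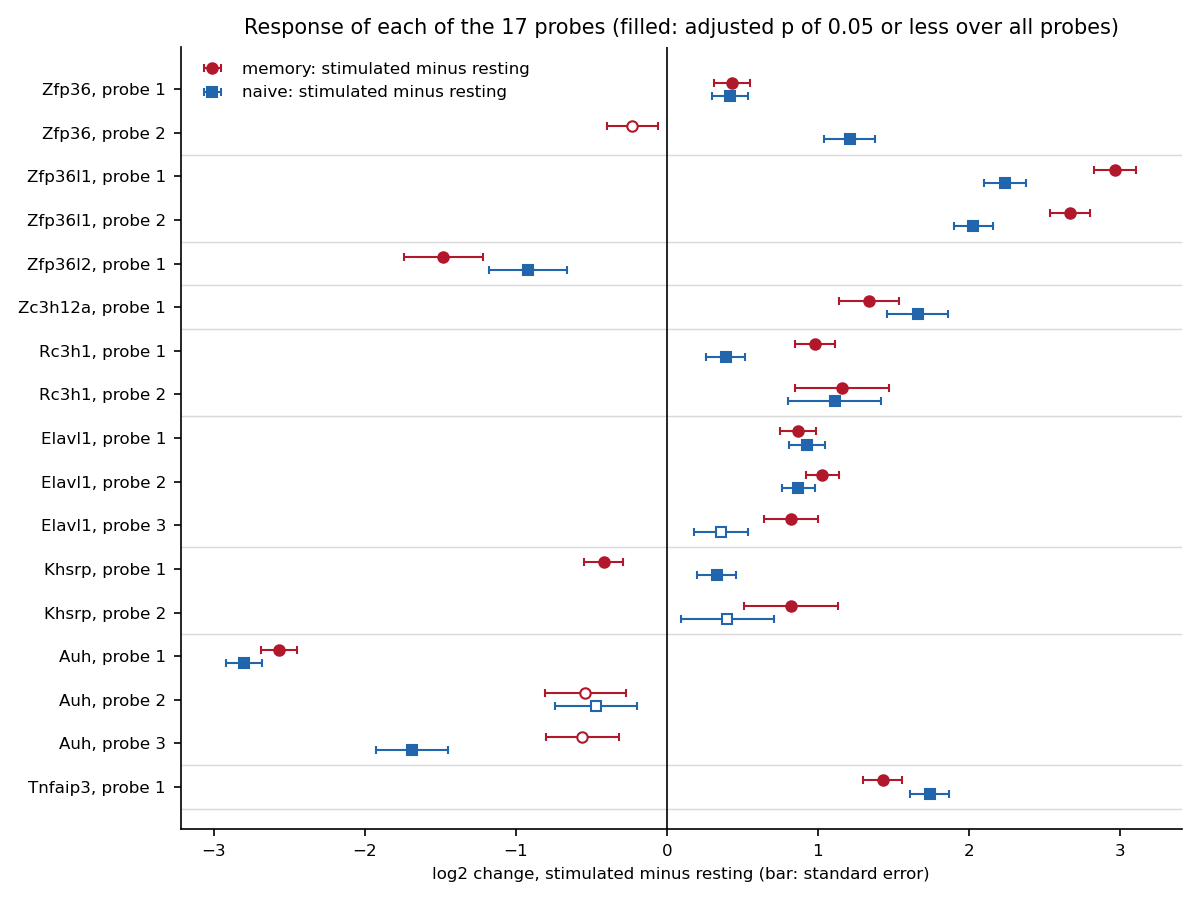
Change of each of the 17 probes on stimulation (log2, stimulated minus resting, bar: SE) in memory cells (circles) and naive cells (squares), filled where the adjusted p over all 27361 probes is 0.05 or less. Zfp36l1 lies farthest right and Auh probe 1 farthest left in both fractions, and Zfp36 probe 2 and Khsrp probe 1 have their 2 responses on opposite sides of 0.

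Memory and naive cells were then compared within each condition. At rest, Khsrp and Auh were higher and Zfp36, Zfp36l1 and Rc3h1 lower in memory cells, 5 of 9 genes, where 21.3% of all genes differed, 13.9% higher and 7.47% lower in memory cells. The groups did not overlap for 5 of 9, against 22.6% of all genes. Zfp36l1 averaged 3.63 ± 0.11 in memory resting and 4.40 ± 0.25 in naive resting cells (SD, n = 4 each), a difference of -0.77 ± 0.14 (SE; adjusted p = 0.000898) that probe 2 also gave (-0.79). Zfp36 averaged 1.0 ± 0.22 in memory resting and 1.67 ± 0.20 in naive resting cells on probe 1 (-0.66 ± 0.12, adjusted p = 0.0013), while probe 2 gave -0.12 ± 0.17 (adjusted p = 0.676). Rc3h1 differed by -0.46 ± 0.13 (adjusted p = 0.0202), Khsrp by 0.44 ± 0.13 (adjusted p = 0.0223) and Auh by 0.37 ± 0.12 (adjusted p = 0.0346). These last 3 calls are weak. The call for Auh was lost without any of 7 of the 8 resting arrays (all but naive resting replicate 1; adjusted p = 0.052 to 0.102), that for Rc3h1 without memory resting replicate 1 or 3 or naive resting 2 or 3 (adjusted p = 0.0525 to 0.074) and that for Khsrp without memory resting replicate 1 or 4 or naive resting 2 or 3 (adjusted p = 0.0594 to 0.0794). None of the 3 passed on the mean of a gene's probes (0.25 for Auh, -0.36 for Rc3h1 and 0.05 for Khsrp). Tnfaip3, at 0.33 ± 0.13 (adjusted p = 0.078), passed with quantile normalization (0.46, adjusted p = 0.00349), in the authors' value table (adjusted p = 0.0248) and without naive resting replicate 1 (adjusted p = 0.0405). Elavl1, at -0.18 ± 0.12 (adjusted p = 0.295), passed with the mean of its probes (-0.36, adjusted p = 0.0333). Over probes, its probe 3 gave -0.69 (adjusted p = 0.0165) and its probe 2 gave -0.20 (adjusted p = 0.222).

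After stimulation, Auh was higher and Zfp36 lower in memory cells, 2 of 9 genes, where 24.1% of all genes differed, 9.86% higher and 14.2% lower in memory cells; groups did not overlap for 3 of 9, against 27.6%. Auh averaged 0.12 ± 0.18 in memory stimulated and -0.48 ± 0.17 in naive stimulated cells, a difference of 0.60 ± 0.12 (adjusted p = 0.00174). Zfp36 averaged 1.43 ± 0.06 in memory stimulated and 2.08 ± 0.07 in naive stimulated cells (-0.65 ± 0.12, adjusted p = 0.00144). Zc3h12a, at -0.41 ± 0.20 (adjusted p = 0.149), was called lower in memory cells with the replicate number as a block (adjusted p = 0.0263). For Zfp36l1, Tnfaip3 and Rc3h1 the values were -0.04 ± 0.14, 0.03 ± 0.13 and 0.13 ± 0.13 (adjusted p = 0.853, 0.907 and 0.514). In Zfp36l1, the order of the groups was naive stimulated (6.64) and memory stimulated (6.60), which did not differ beyond their spread, then naive resting (4.40) and memory resting (3.63). In Tnfaip3 it was memory stimulated (6.92) and naive stimulated (6.90), then memory resting (5.50) and naive resting (5.16), where the fractions did not pass the test in either condition.

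The genes whose levels followed each of the 9 most closely over the 16 arrays were taken from all genes tested, 3 for each, of which 2 are named for Zfp36. The highest Pearson r was 0.996 for Zfp36l1 (with Ahctf1, followed by Cluh and Dis3), 0.996 for Auh (Tbc1d22a, Flot1, Slc35d2), 0.994 for Elavl1 (Pdxk, Pdhx, Rnps1) and 0.992 for Tnfaip3 (Mrpl16, Arhgef3, Sap18). It was 0.988 for Zc3h12a (Srsf7, Necap1, Zc3hc1), 0.966 for Rc3h1 (Camsap1, Apoe, Med6), 0.951 for Zfp36 (Plaur, Ly6k) and 0.950 for Zfp36l2 (Gnai2, Cd37, Fam76a). For Khsrp probe 1 it was 0.982 (Sprr2b, Slc22a12, Hsf1). The arrays fall into 4 groups far apart, so a high r mostly says that a gene has the same 4 group means, and it is given as a description with no test. Dis3, the catalytic subunit of the RNA exosome, is among the genes named for Zfp36l1.

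The pathway around these genes was described from 7 lists of genes known for their roles, read as counts beside all genes tested, of which 30.1% rose and 40.8% fell in memory cells and 36.7% rose and 32.0% fell in naive cells. Of 20 other ARE and stem-loop binding proteins, 10 rose and 5 fell in memory cells and 11 rose and 5 fell in naive cells. The falls were 3 in naive cells without naive resting replicate 2 or 3, and 2 in memory cells with the repaired normexp correction. Hnrnpab, a relative of the ARE-binding protein AUF1, rose by 1.79 ± 0.14 in memory and by 1.50 ± 0.14 in naive cells. Zc3h12d (Regnase-4) fell by 3.05 ± 0.27 in memory and by 2.59 ± 0.27 in naive cells, opposite to Zc3h12a. Zc3h12c (Regnase-3) rose by 1.78 ± 0.26 in memory cells and at least 2.63-fold in naive cells, where it was below background on all naive resting arrays. The genes of the neuronal Hu proteins Elavl2 and Elavl4 were called lower in both responses at faint levels, with Elavl4 above background on 1 of 4 arrays in each stimulated group and Elavl2 on 2 (memory) and 3 (naive). In memory cells those calls were lost with the repaired normexp correction (-0.33, adjusted p = 0.0863 for Elavl2; -0.27, adjusted p = 0.214 for Elavl4), and that of Elavl4 also with quantile normalization (adjusted p = 0.0509).

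Among 20 deadenylation genes, 7 rose and 7 fell in memory cells and 8 rose and 7 fell in naive cells. The number rising was 3 (memory) and 4 (naive) with quantile normalization and 3 (memory) and 5 (naive) in the authors' value table. In naive cells it was 4 without naive stimulated replicate 3 or naive resting replicate 1 and 5 without naive stimulated replicate 4. Pabpc4, a poly(A)-binding protein, rose by 1.81 ± 0.15 in each fraction. The brightest probes of both subunits of the PAN2-PAN3 deadenylase fell, Pan2 by 1.18 (memory) and 1.51 (naive) and Pan3 by 0.79 (memory) and 1.05 (naive). With the mean of a gene's probes the values were -0.32 (adjusted p = 0.0362) in memory and -0.26 (adjusted p = 0.0871) in naive cells for Pan2, and -0.31 (adjusted p = 0.219) in memory and -0.28 (adjusted p = 0.276) in naive cells for Pan3. Btg2, a recruiter of CCR4-NOT and a brake on T cell activation, fell by 1.25 ± 0.12 in memory and by 1.97 ± 0.12 in naive cells, a difference between responses of 0.72 ± 0.17 (adjusted p = 0.00728), which was 0.59 with the mean of its probes (adjusted p = 0.1). Of 20 genes of decapping and 5' to 3' decay, 10 rose and 6 fell in memory and 9 rose and 6 fell in naive cells. The Lsm ring subunits Lsm2, Lsm6 and Lsm7 rose by 1.66, 1.41 and 1.66 in memory and by 1.55, 1.40 and 1.12 in naive cells; for Lsm7, quantile normalization gave 1.08 (memory) and 0.67 (naive). Xrn1, the main 5' to 3' exonuclease, fell by 2.19 ± 0.43 (memory) and 1.57 ± 0.43 (naive), and Dcps, the scavenger decapping enzyme, fell by 1.08 (memory) and 1.37 (naive).

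Most genes of the RNA exosome rose. Of 15 subunits and cofactors tested, 13 rose in each fraction, with 1 fall in memory (2 with quantile normalization, in the authors' value table and with the mean of a gene's probes) and 2 in naive cells, and the median change was 1.47 in memory and 1.16 in naive cells against -0.21 and 0.11 for all genes. Dis3 rose by 3.19 ± 0.13 (adjusted p = 1.74e-11) in memory and by 2.58 ± 0.13 (adjusted p = 1.51e-10) in naive cells, Exosc2 by 2.62 (memory) and 2.15 (naive), Exosc6 by 2.47 (memory) and 1.96 (naive), and the Ski complex subunit Wdr61 by 2.18 (memory) and 1.87 (naive). No test set this list against others, and like the other lists it was chosen with earlier results of these data known.

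Most messages listed as known ARE or stem-loop targets rose as well. This list, like the others, was chosen with earlier results of these data known, so its counts are a description and no test. Of 28, 26 rose and 0 fell in memory cells and 24 rose and 1 fell in naive cells, where 30.1% of all genes rose in memory and 36.7% in naive cells. The medians were 3.44 in memory and 2.58 in naive cells on the log2 scale, and 3.44 (memory) and 2.26 (naive) with genes below background in a group set to their bound. By limma at an unadjusted p under 0.05 the memory count of falls was also 0. Tnf rose by 5.17 ± 0.25 in memory and by 4.42 ± 0.25 in naive cells, Ifng by 7.95 ± 0.17 (memory) and 8.63 ± 0.17 (naive), and the transcription factor gene Myc by 5.97 ± 0.11 (memory) and 4.68 ± 0.11 (naive). Il2 rose by 11.19 ± 0.21 in memory cells and at least 550-fold in naive cells, where it was below background on all resting arrays. Il3 rose at least 2100-fold in memory cells and Csf2 at least 16.8-fold in naive cells. Both also rose in the other fraction, where 1 of 4 resting arrays was above background and the size is not given. Il17a rose at least 56.5-fold in memory cells. Rel, an NF-kappaB subunit and Regnase-1 target, rose by 2.16 ± 0.26 in memory and by 5.30 ± 0.26 in naive cells, a difference of -3.13 ± 0.37 (adjusted p = 2.96e-05). With the repaired normexp correction the naive rise of Rel was 3.4 and the difference -1.93 (adjusted p = 1.49e-05), so these sizes depend on the background correction. These are levels, and the arrays do not measure half-lives.

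Of 20 genes that act with A20 or MALT1, 7 rose and 8 fell in memory cells and 9 rose and 8 fell in naive cells, near the shares of all genes. Malt1 rose by 2.00 ± 0.14 in memory and by 2.28 ± 0.14 in naive cells. The A20-binding proteins parted: Tnip1 fell by 2.16 ± 0.12 (memory) and 2.92 ± 0.12 (naive), while Tnip2 rose by 2.17 (memory) and 2.01 (naive). Tnip3 rose in both fractions, but 1 of 4 arrays was above background in each resting group, so its size is not given. Rnf11, an A20 cofactor, rose by 2.39 (memory) and 2.09 (naive). Nfkbia, which encodes the NF-kappaB inhibitor IkappaB alpha, rose by 1.87 ± 0.13 in memory and by 0.77 ± 0.13 in naive cells, and the responses differed by 1.09 ± 0.18 (adjusted p = 0.00054). With quantile normalization the rises of Nfkbia were 1.21 (memory) and 0.28 (naive, adjusted p = 0.036), and the authors' value table gave 1.19 (memory) and 0.08 (naive, adjusted p = 0.537).

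The p38-MK2 pathway phosphorylates tristetraprolin, after which 14-3-3 proteins hold it away from deadenylases. Of 13 genes of this list, 8 rose and 3 fell in each fraction, and 5 fell in memory cells with quantile normalization and in the authors' value table. The p38-activating kinases parted, with Map2k3 rising by 3.26 ± 0.13 in memory and by 3.84 ± 0.13 in naive cells. Map2k6 fell at least 8.49-fold in memory and at least 6.0-fold in naive cells, since it was below background on all stimulated arrays. Mapkapk3 rose by 1.42 (memory) and 0.80 (naive), and the 14-3-3 gene Ywhag by 1.41 (memory) and 1.39 (naive).

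**Figure D4:**
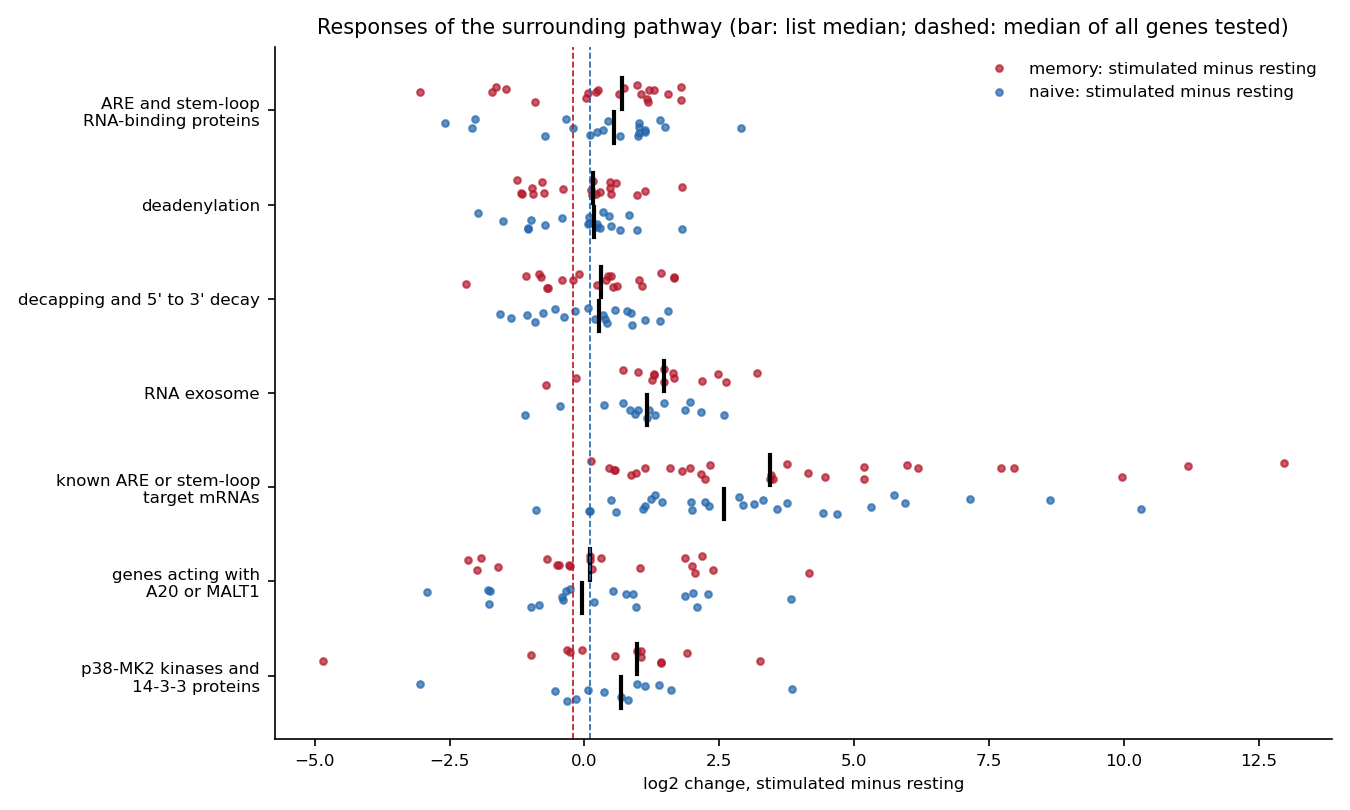
Change on stimulation (log2, stimulated minus resting) of every tested gene of the 7 lists, 1 point per gene, in memory cells (upper row of each list) and naive cells (lower row). Black bars are list medians and dashed lines the medians of all genes tested (-0.21 in memory, 0.11 in naive cells); known targets and the RNA exosome lie farthest to the right, and genes near background are drawn at their fitted values.

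The pentamer was also searched on all probes, on the strand of the message. Of the 2168 tested probes with ATTTA, 32.1% rose and 39.9% fell in memory cells and 38.9% rose and 31.8% fell in naive cells, close to the 32.0% and 38.8% and the 37.5% and 31.4% of all tested probes. The 39 tested probes with the overlapping form ATTTATTTA had 46.2% rising and 33.3% falling in memory cells and 59.0% rising and 20.5% falling in naive cells. Their median change was 0.36 in memory and 0.70 in naive cells, against -0.14 and 0.12 for all probes. Their mean AT content was 65.5% against 57.5%, and neither this nor the small number of probes was separated from the motif, so the part of AT content was not tested. None of the 17 probes of the 9 genes holds the overlapping form.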

How the data were processed

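Each sample was labelled with Cy3 by oligo-dT primed amplification, per the labels' protocols, and put on an array of its own, a whole-genome design with 60-base probes. Per the file headers, the authors extracted the spots with Agilent Feature Extraction 9.5.3.1, and the deposited intensity is the background-subtracted processed signal of each spot on a linear scale, not normalized between arrays. From these files, log2 of the processed signal minus each array's 75th percentile (504.3 to 678.0 intensity units) was computed, control and outlier spots were left out and spots of a probe averaged. Testing was limited to the 27361 probes that at least 3 of the 4 arrays of some group had well above background, and a gene was represented by its brightest probe (18411 genes). On each array 59.3% to 66.5% of spots were well above background, and precision rests on the number of arrays.

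The model, in limma 3.58.1 in R 4.3.3 (lmFit and eBayes, two-sided), had a mean for each group over all 16 arrays, with Benjamini-Hochberg adjustment over all genes, or over all probes where said, and a threshold of 0.05. The fit was tested on simulated data first. A deposited value table of the authors (intensity, quartiles of 44.0 and 1113.0 to 1114.0 on the arrays, processing not given in the sources used here) served as an alternative; its slope on log2 processed signal of 0.739 to 0.818 shows that its scale differs. A bound ("at least") compares the bright group's mean with the lowest signal well above background on each array of the dim group.

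The 9 genes and the lists around them were chosen with earlier results of these data known. The rule for the other names was the 3 genes most correlated with each of the 9 and, from each list, the 4 largest called changes in each response and up to 4 called differences between responses of at least 1 (log2), with Tnf, Ifng, Il2 and Myc; some of the genes it allows are not reported here. Ier3, Plk3, Cxcl2, Jun and Dusp1 are named for their probe sequences, after their values were seen. Symbols came from the RefSeq gene table through accession, symbol or synonym, otherwise from the files (8455 probes). Probe positions are on mm7 and promoters on GRCm38.p6. Alternatives were a normexp background correction, as planned and repaired where its fit failed, quantile normalization, filters, the authors' table, the mean of a gene's probes, the replicate number as a block and leaving out each array.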

Additional observations from a re-analysis of the deposited data

Results flagged for a closer look

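Responses that differed between the fractions by the test of the difference itself (memory response minus naive response, log2) were 0.73 for Zfp36l1, 0.58 for Rc3h1 and -0.75 for Khsrp on the representative probes, and 0.64 for probe 2 of Zfp36l1 (A_51_P235801), -1.44 for probe 2 of Zfp36 (A_52_P80944) and 1.13 for probe 3 of Auh (A_52_P4095) among the others. Both Zfp36l1 probes gave the difference, while for Rc3h1, Khsrp, Zfp36 and Auh the other probes of the gene did not pass the test of the difference. The naive stimulated arrays of Auh probe 3 were all near background, so its difference has a bound on that side.

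A single array stood apart from its group on 1 probe. Probe 2 of Rc3h1 (A_52_P475886) read -1.09 in memory resting replicate 4, against -0.16 to 0.0 in the other 3. Of 68 groups of 4 looked at, chance alone flags about 1 in 20. Replicate 4 was also the lowest array of both resting groups for Zfp36l2 (-1.85 in memory, -2.36 in naive cells), for probe 2 of Khsrp (-3.90 in memory, -3.63 in naive cells) and, in naive resting cells, for probe 2 of Rc3h1 (-0.75). On each slide, replicate 4 lay at array position 4.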

How the results depend on the processing

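Of the 28 calls among the 9 genes (5 comparisons), 28 held without the filter on dim probes, with a stricter filter and with the replicate number as a block, 24 with quantile normalization, 25 in the authors' table, 21 with the mean of a gene's probes, and 23 to 28 without any 1 array. The planned normexp correction kept 10. Its background fit failed on 3 arrays, all stimulated (fitted means of -958 to -305.3, against -11.7 to -6.3 on the other 13), and with their parameters replaced by the median of the others, chosen after seeing the data, 27 held. The responses of Zfp36l1, Zc3h12a, Auh and Tnfaip3 held in every setting, and those of Elavl1 in all but normexp as planned.

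Under normexp as planned, 3 members rose in memory cells, 4 rose and 1 fell in naive cells, and 0 rose and 0 fell in the other 3 comparisons. Of all genes, 3107 fell in the memory response, 3716 rose and 2900 fell in the naive response, 417 rose and 103 fell at rest (memory minus naive), 259 rose and 193 fell after stimulation, and 31 rose and 182 fell between responses. It moved the median of all genes to 0.66 in memory and 0.38 in naive cells, against 0.03 and 0.11 after the repair. It also turned the memory response of Elavl2 to 0.97, of Elavl4 to 1.02 and of Map2k6 to 0.27, and the difference between responses to 0.60 for Map2k6 and 0.71 for Zc3h12c. After the repair, 1 member was higher at rest, 1680 genes were higher at rest, 1580 lower after stimulation and 1379 lower between responses, and Zc3h12c was at 0.37. The authors' table gave 1 member and 1682 genes with a larger memory response, 2206 genes lower at rest, and 0.46 for Zc3h12c. With quantile normalization, 4 members rose in naive cells, and 1 had a larger and 2 a smaller memory response. With the mean of a gene's probes, 1 member had a larger memory response and 0 were higher at rest, and Khsrp in memory cells was 0.20, the difference for Zfp36 -0.71 and that for Dis3 -0.09. The cause of these changes was not tested.

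The main fit did not treat arrays of the same replicate number as pairs, though by the titles each number has 1 array in every group. Deviations of same-numbered arrays correlated at -0.211 to 0.585 (median 0.161, against -0.071 for other numbers). They were over 0.1 in 16 of 24 pairs, and 12 of 16 arrays correlated best with their own number. The replicate number was also the array's position on its slide, so repeat and position cannot be told apart. With the block, 2 members were lower after stimulation (Zc3h12a joined, -0.41, adjusted p = 0.0263), 2411 genes were lower at rest and 1698 had a larger memory response. Leaving out 1 array gave 0 to 3 members higher at rest and 1 to 2 with a larger memory response, and 851 to 1927 genes lower at rest, fewest without memory resting replicate 1. A slide block was not run, since each slide holds 1 group. The r of the genes most alike to the 9 was 0.908 or more without any 1 array, 0.847 or more with quantile normalization and 0.27 or more (median 0.923) with normexp as planned.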
